A study of Trichoderma reesei with 6 samples.

Results

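The 123 protein IDs described here are transcripts of Trichoderma reesei above a set wild-type level that were strongly lost in a strain without cre1. They were chosen by these values themselves, from 9129 IDs, with 3 conditions on the deposited normalized counts. The wild-type mean had to be at least 300, the Δcre1 mean at most 25% of it, and the highest Δcre1 library below the lowest wild-type library. The limit of 300 was also reached by 5335 other IDs, so it does not mark out highly expressed genes. The 3 conditions were met by 132 IDs, of which 9 were left out by name, cre1 itself and the endoglucanase gene cel5b among them. RNA-seq was made from mycelia of the Δcre1 mutant and of the wild-type strain QM9414, both cultured with 1 mM sophorose as carbon source, with 3 libraries per strain. Harvest times of 2, 4 and 6 h are named for the study, and no label ties a library to one of them. The labels state neither the parent of the mutant, nor the number of clones, nor the part of cre1 removed. The growth text of the wild-type libraries speaks of the mutant strain, as that of the mutant libraries does, and their title and genotype label give the wild type.

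CRE1 is a zinc finger DNA-binding protein that mediates carbon catabolite repression in filamentous fungi. In the presence of a preferred sugar it lowers transcription of genes for the use of other carbon sources, among them cellulase and hemicellulase genes. Sophorose is a glucose disaccharide that induces cellulase genes in this fungus. A gene under such repression is known to rise when CRE1 is lost. The members described here were chosen for being lower, and whether CRE1 acts on them directly was not tested.

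The libraries held 21688837, 18196564 and 21778997 counts in Δcre1 replicates 1, 2 and 3, and 13122470, 17402437 and 19557827 counts in wild-type replicates 1, 2 and 3. The deleted gene, cre1, was at 765, 827 and 1138 normalized counts in Δcre1 and at 8674, 9238 and 8310 in the wild type. Of 8190 genes tested with edgeR's quasi-likelihood test, 1899 were lower and 1863 higher in Δcre1 at an adjusted p below 0.05, which is 23.2 and 22.7%. Of the calls, 50.5% were lower under TMM scaling (the trimmed mean of M values, used throughout) and 80.2% with library totals alone. Over all genes the median log2 fold change was 0.01 under TMM scaling and -0.21 with totals alone. Protein IDs 48266 and 61593 gained most in share of the counts, comparing the highest Δcre1 library with the highest wild-type library. Together they took 6.06, 37.8 and 11.1% of the counts in Δcre1 replicates 1, 2 and 3. In the wild-type libraries they took 2.72 to 4.33%. Their part in the members' values was not tested. In bulk RNA, fewer cells of a type and less RNA per cell cannot be told apart.

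The members' values below are a description, since these values chose them, and no test of them is given. Together the members took 0.345, 0.254 and 0.426% of the counts in Δcre1 replicates 1, 2 and 3, against 2.65, 2.87 and 2.73% in wild-type replicates 1, 2 and 3. The median member was at 15.7% of the wild type, a log2 ratio of -2.67, where the median over all genes tested was 0.00. The shares ran from 0.397 to 24.9%. Of the 123, 32 were at or below 10% of the wild type, 58 lay above 10 and at most at 20%, and 33 lay above 20%. The loss was not limited to a narrow range of counts: 12 members had a wild-type mean of at least 10000 normalized counts, 56 lay from 1000 to 10000 and 55 below 1000. The lowest wild-type library was at least 2.09 times the highest Δcre1 library in every member, with a median of 4.73 times. All Δcre1 libraries lay below all wild-type libraries in 28.4% of the genes tested, a condition that was part of the choice of the members. All 123 passed the low-count filter and were lower in edgeR's fit, where 23.2% of all genes were, and nothing is read from that count.

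**Figure D1:**
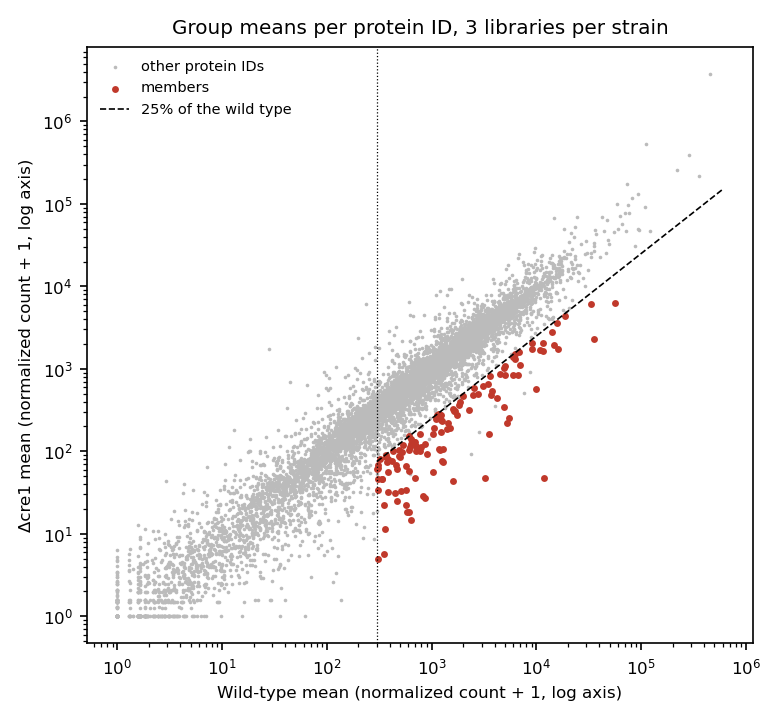
Mean normalized count per protein ID over 3 libraries, Δcre1 on the vertical and wild type on the horizontal log axis, with 1 added. The 123 members (red) lie right of the dotted line at 300 and under the dashed line at 25% of the wild type, and TRIREDRAFT_21876 lies farthest under it, at 0.397%.

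Some genes missed the conditions narrowly. The members nearest to the limit of 25% were TRIREDRAFT_103822, at 24.93% of the wild type, TRIREDRAFT_121427, at 24.84%, and TRIREDRAFT_106695, at 24.63%. Just outside stood TRIREDRAFT_31134, at 25.01%, TRIREDRAFT_59801, at 25.23%, and TRIREDRAFT_122069, at 25.42%. Nearest to the limit of 300 inside were TRIREDRAFT_68821, TRIREDRAFT_58366 and TRIREDRAFT_2316, with wild-type means of 302, 304 and 307. Just outside were TRIREDRAFT_76366, TRIREDRAFT_122992 and TRIREDRAFT_6005, with wild-type means of 299, 298 and 298 and Δcre1 shares of 17.4, 21.6 and 6.07%. No gene met the 2 conditions on the means and failed only the one on overlap.

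Of the 123 members, 3 carried a gene symbol in the reference used for names, and 1 had no entry there. The other 119 are known only by locus tag, and no role is given to them. The first of the 3 is snf1, which bears the name of the yeast kinase that releases genes from glucose repression. It had 3738, 4438 and 4852 normalized counts in Δcre1 replicates 1, 2 and 3, against 17720, 20084 and 18940 in wild-type replicates 1, 2 and 3. The Δcre1 mean was 23.0% of the wild type, close to the upper limit of the choice.

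The gene cro1 had 1829, 2039 and 2262 normalized counts in Δcre1 libraries, against 10254, 12269 and 12105 in wild-type libraries. Its Δcre1 mean of 2043 ± 216 was 17.7% of the wild-type mean of 11542 ± 1119 (SD, n = 3 each). Here the libraries of each strain lay close together and far from those of the other strain.

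The third is chi18-2, a gene of glycoside hydrolase family 18, whose chitinases cleave chitin, a polymer of the fungal cell wall. It had 85.1, 99.1 and 162 normalized counts in Δcre1 replicates 1, 2 and 3, against 489, 636 and 1006 in wild-type replicates 1, 2 and 3. Replicate 3 was the highest library in both strains, and the Δcre1 mean was 16.2% of the wild type. The table held 17 genes with a chi18 or chit18 symbol, a list chosen after the values were seen and therefore not tested. All Δcre1 libraries lay below all wild-type libraries in 3 of the 17 (chi18-2, which was chosen for this, chi18-7 and chi18-3) and above them in 6. Over all genes tested the shares were 28.4% below and 27.3% above, and no more is read from these counts. Besides chi18-2, the largest loss among these 3 was that of chi18-7, at 1739 ± 140 normalized counts in Δcre1 and 4001 ± 588 in the wild type (SD, n = 3 each). In the other direction chi18-rel1 was at 7408 ± 385 in Δcre1 and 2423 ± 185 in the wild type. The low-count filter removed 4 of the 17.

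The strongest loss was that of TRIREDRAFT_21876. It had 31.1, 56.6 and 53.1 normalized counts in Δcre1 replicates 1, 2 and 3, against 12450, 13086 and 9953 in wild-type replicates 1, 2 and 3. The Δcre1 mean was 0.397% of the wild type, which made a transcript among the 12 highest wild-type means of the group one of 42, 40 and 60 raw counts. Its fitted log2 fold change was -8.01 ± 0.22 (SE). TRIREDRAFT_104251 had 37.7, 39.7 and 61.9 normalized counts in Δcre1, against 2886, 3659 and 3057 in the wild type, a share of 1.45%. In TRIREDRAFT_77288 the Δcre1 libraries held 30.3, 36.8 and 61.1 normalized counts and the wild-type libraries 1611, 1724 and 1492, a share of 2.66%. These 3 had wild-type means above 1000 and Δcre1 means below 50.

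At the low end of the wild-type range, the Δcre1 values rested on few reads. TRIREDRAFT_58366 had 2, 6 and 2 raw counts in Δcre1 replicates 1, 2 and 3, and its normalized counts were 1.48, 8.50 and 1.77 there, against 302, 286 and 324 in the wild type. TRIREDRAFT_65583 had 10, 1 and 6 raw counts in Δcre1, or 7.40, 1.42 and 5.31 normalized counts, against 359, 393 and 300 in the wild type. The shares of these 2 genes, 1.29 and 1.34%, therefore have a counting error that the means do not show. TRIREDRAFT_22110 had 11.8, 8.50 and 10.6 normalized counts in Δcre1, against 329, 424 and 317 in the wild type. Its Δcre1 libraries lay closer together than those of the 2 genes before it.

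In the 12 members with the highest wild-type means the Δcre1 share ran from 0.397 to 23.0%. TRIREDRAFT_121534, with the highest wild-type mean, had 6252 ± 5414 normalized counts in Δcre1 and 56054 ± 5233 in the wild type (SD, n = 3 each). Protein ID 52206, which has no entry in the reference, had 2256, 2539 and 2148 normalized counts in Δcre1 and 33171, 35775 and 37389 in the wild type, a share of 6.53% with little spread in either strain. TRIREDRAFT_120821 had 5765, 5584 and 7220 in Δcre1, against 30226, 37127 and 31617 in the wild type. TRIREDRAFT_64710 had 1827, 1694 and 1748 in Δcre1, against 15498, 15190 and 17428 in the wild type. In the last 3 the libraries of a strain lay within 1.3 times of each other. Gene lengths were not used, so the order of levels between genes is not a comparison of transcript numbers.

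**Figure D2:**
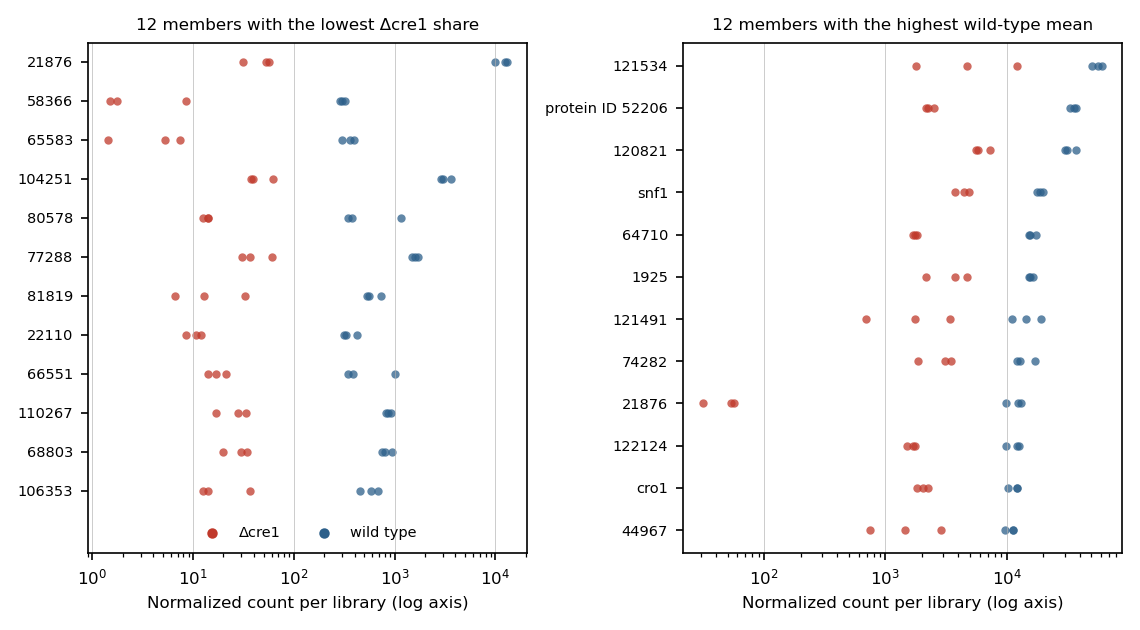
Normalized count in each of the 6 libraries (log axis) for the 12 members with the lowest Δcre1 share of the wild type (left) and the 12 with the highest wild-type mean (right), with Δcre1 in red and wild type in blue. No member shows an overlap of the strains, and the 3 Δcre1 libraries of TRIREDRAFT_121534 are spread from 1774 to 12268 normalized counts.

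Within the wild type, 6 members were at least 2 times higher in replicate 1 than in both other libraries, 4.88% of the 123. Among the 5335 other genes of a wild-type mean of at least 300 this held for 3, or 0.0562%. The wild-type values took part in the choice of the members, through their mean and lowest library. A high replicate 1 raises that mean and lowers the Δcre1 share. The 2 percentages are thus not independent of the choice, and they are given as a description. TRIREDRAFT_80578 had 14.1, 14.2 and 12.4 normalized counts in Δcre1, against 1169, 376 and 343 in wild-type replicates 1, 2 and 3. TRIREDRAFT_66551, the gene beside it, had 14.1, 17.0 and 21.2 in Δcre1 and 1004, 346 and 387 in the wild type. The high wild-type library was thus the same in these neighbours, and no Δcre1 library stood apart to that degree.

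A second such pair of neighbours was TRIREDRAFT_120975 and TRIREDRAFT_58475. TRIREDRAFT_120975 had 348, 380 and 301 normalized counts in Δcre1, against 7727, 3166 and 3763 in the wild type. TRIREDRAFT_58475 had 65.8, 83.6 and 67.2 in Δcre1, against 2346, 760 and 768 in the wild type. The next gene on the other side of TRIREDRAFT_58475 is chi18-2, in which wild-type replicate 1 was the lowest wild-type library. The remaining 2 were TRIREDRAFT_112516, with 34.5 to 82.1 in Δcre1 against 2154, 535 and 408 in the wild type, and TRIREDRAFT_63756, with 55.2 to 64.6 in Δcre1 against 732, 329 and 337 in the wild type. Without wild-type replicate 1 the Δcre1 shares of the 6 were 3.76 to 18.1%, against 2.15 to 12.9% with it. The largest move was that of TRIREDRAFT_112516, to 11.8% from 5.39%. All 6 shares stayed under 25%.

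The same pattern was looked for below the level of the members. Of 7415 genes tested with a wild-type mean of at least 50 normalized counts, 14 were at least 2 times higher in wild-type replicate 1 than in both others, 6 of them members. Apart from the 6 members, which were chosen for being lower, edgeR called 5 of them lower in Δcre1, 1 higher and 2 neither. The higher one was TRIREDRAFT_119790, at 1780 ± 104 normalized counts in Δcre1 and 311 ± 155 in the wild type (SD, n = 3 each). A high wild-type library raises the wild-type mean, so the direction of these calls is not independent of how the 14 were found. Of the 5 lower genes that are no members, TRIREDRAFT_56278, TRIREDRAFT_70837 and TRIREDRAFT_59801 were not called when any single Δcre1 library was left out (edgeR adjusted p from 0.0692 to 0.181), and TRIREDRAFT_111124 was not called without Δcre1 replicate 1 or 3 (0.0724 and 0.057). TRIREDRAFT_59065 had no count in any Δcre1 library. TRIREDRAFT_70837 lies beside TRIREDRAFT_112516 and had 2.96, 0 and 1.77 normalized counts in Δcre1, against 263, 42.2 and 37.1 in the wild type.

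Within Δcre1 the residual level of some members differed widely between libraries. The median ratio of the highest to the lowest library was 1.38 in Δcre1 and 1.25 in the wild type, against 1.16 and 1.14 in the 5335 other genes of that wild-type level. The members' Δcre1 counts were lower than those of the other genes, which adds counting error to the first ratio. The ratio was at least 3 in 11 members, 8.94% of them, and in 0.581% of the other genes. With a Δcre1 mean of at least 50 normalized counts it was 7 of 100 members, against 0.562% of the other genes. That limit left 5334 of the 5335 other genes, so it did not make the members and the others alike in level. The Δcre1 mean and highest library took part in the choice of the members. These shares are thus not independent of the choice and are given as a description. TRIREDRAFT_121534 had 1774, 4712 and 12268 normalized counts in Δcre1 replicates 1, 2 and 3, against 50717, 61177 and 56267 in the wild type. TRIREDRAFT_121416 had 59.2, 211 and 385 in Δcre1, against 5282, 5691 and 4751 in the wild type, and TRIREDRAFT_34297 had 13.3, 52.4 and 99.99 in Δcre1 against 330, 439 and 385.

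In these 3 genes Δcre1 replicate 3 was the highest and replicate 1 the lowest, and the wild-type libraries were close together. The same was seen across the 11: replicate 3 was the highest in 9 and replicate 1 the lowest in 10. It was not particular to the members, since of the 31 other genes with such a ratio 27 were highest in replicate 3 and 30 lowest in replicate 1. Among all members replicate 3 was the highest Δcre1 library in 48.0%, near the 41.8% of the other genes. Without Δcre1 replicate 3 the share of TRIREDRAFT_121534 was 5.79% in place of 11.2%, that of TRIREDRAFT_121416 2.58% in place of 4.17%, and that of TRIREDRAFT_34297 8.55% in place of 14.4%.

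**Figure D3:**
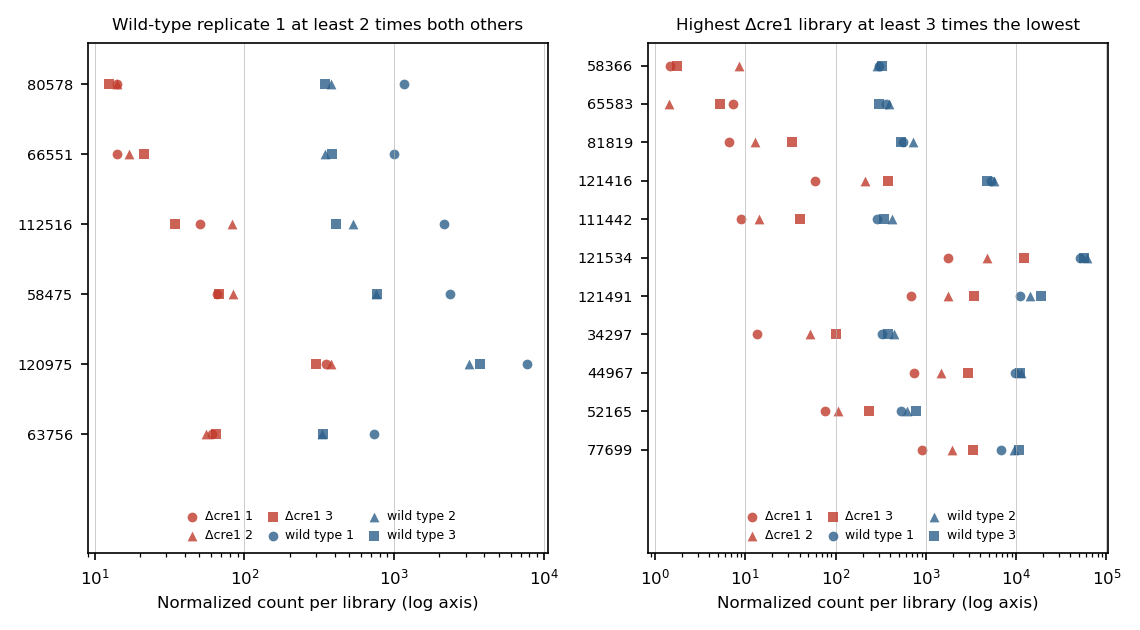
Normalized count in each library (log axis) for the 6 members whose wild-type replicate 1 (blue circle) was at least 2 times both other wild-type libraries (left), and for the 11 members whose highest Δcre1 library was at least 3 times the lowest (right). On the left the circles stand apart from the other blue points, and on the right the Δcre1 square (replicate 3) is the highest red point in 9 of 11 rows.

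Position along the genome was not among the 3 conditions of the choice. The IDs left out by name include a run of 7 consecutive genes, however, so the counts of neighbouring members do not cover that run. Of the 123, 122 were found in the gene order of the reference, and 21 of these stood directly beside another member, in 11 pairs. Within 5 genes of another member stood 30, and 92 had none so near. The direct neighbours of members that were no members themselves were lower in Δcre1 more often than genes at large. Of 186 such genes tested, 84 (45.2%) were lower by edgeR's test, against 23.2% of all genes tested, and 20 (10.8%) were higher, against 22.7%. At least 2-fold lower were 44 (23.7%), against 9.29% of all genes. The share of lower genes was 32.4% at the second gene from the nearest member, 25.4% at the third, 21.7% at the fourth and 30.1% at the fifth. Without single libraries 35.3 to 42.6% of the direct neighbours were lower, against 19.4 to 23.2% of all genes. No source used here gives the strand setting of the counting, and reads of overlapping neighbours cannot be told apart.

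**Figure D4:**
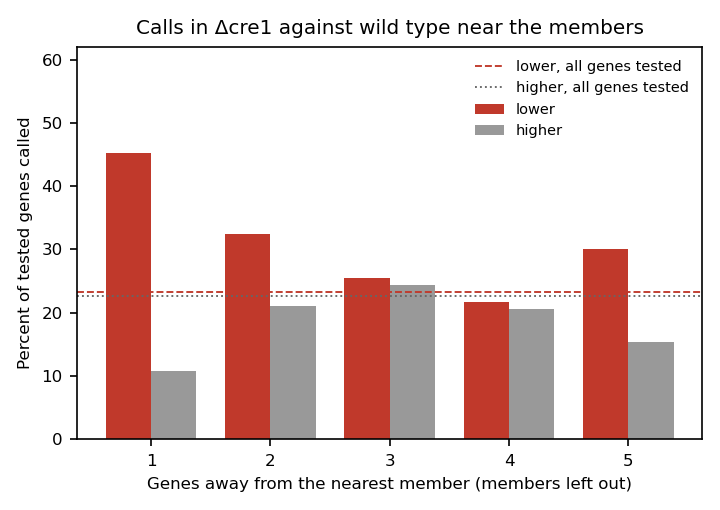
Percent of tested genes that were lower (red) or higher (grey) in Δcre1 at an adjusted p below 0.05, by the number of genes to the nearest member, with members left out. The dashed and dotted lines mark 23.2% lower and 22.7% higher among all 8190 genes tested, and the red bar at 1 gene stands at 45.2%.

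Runs of at least 3 consecutive genes called at least 2-fold lower numbered 34, of which 16 held a member and 18 held none. The longest had 7 genes, all 7 of them IDs left out of the group by name. Of the 4 runs with 4 genes and 2 members, the first described here is the one around TRIREDRAFT_76359, chosen after its values were seen. TRIREDRAFT_105449 had 5.92, 11.3 and 4.42 normalized counts in Δcre1, against 74.0, 51.8 and 97.3 in the wild type. The member TRIREDRAFT_76359 beside it had 323, 241 and 250 in Δcre1, against 1915, 1444 and 1936. Then came TRIREDRAFT_76360, with 19.2, 18.4 and 12.4 in Δcre1 against 262, 293 and 266, and the member TRIREDRAFT_58366. The next gene, TRIREDRAFT_76363, was at 1246, 1219 and 1212 in Δcre1 and 1526, 1166 and 1336 in the wild type and passed no test (log2 fold change -0.12 ± 0.10 (SE), edgeR adjusted p = 0.338). TRIREDRAFT_105449 and TRIREDRAFT_76360 fell, with log2 fold changes of -3.45 ± 0.39 and -4.02 ± 0.21 (SE; edgeR adjusted p = 6.82e-06 and 2.12e-09). Both were too low in the wild type to be members. Lower genes were also found farther out. TRIREDRAFT_105454, the gene after TRIREDRAFT_76363, had a log2 fold change of -2.04 ± 0.38 (SE; edgeR adjusted p = 0.000554). On the other side TRIREDRAFT_105448 and TRIREDRAFT_105447 had no count in any library. Beyond them TRIREDRAFT_59065 and TRIREDRAFT_105445 were called lower, with no Δcre1 count (edgeR adjusted p = 0.0152 and 0.000826).

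TRIREDRAFT_21876, the member with the strongest loss, stood beside TRIREDRAFT_105342, which had 34.0, 32.6 and 31.0 normalized counts in Δcre1 against 614, 600 and 472 in the wild type. On the other side of TRIREDRAFT_21876, TRIREDRAFT_73016 and TRIREDRAFT_105338 held too few counts to be tested. Beyond them TRIREDRAFT_58814 had a log2 fold change of -1.34 ± 0.23 (SE; edgeR adjusted p = 0.000272). The loss did not run on to the gene after TRIREDRAFT_105342. TRIREDRAFT_46421 was at 780, 895 and 863 in Δcre1 and at 696, 688 and 756 in the wild type, a log2 fold change of 0.25 ± 0.09 (SE; edgeR adjusted p = 0.0437). That call was not kept without any single wild-type library (edgeR adjusted p = 0.0537 to 0.126), without Δcre1 replicate 2 or 3 (0.179 and 0.105), in DESeq2 (0.0847) or with library totals alone (0.988). Around TRIREDRAFT_66551 and TRIREDRAFT_80578 the next gene on the first side, TRIREDRAFT_123238, had a log2 fold change of -1.70 ± 0.10 (SE; edgeR adjusted p = 1.15e-08), with Δcre1 at 299 to 351 normalized counts against 1026 to 1141. On the other side TRIREDRAFT_110214 had one of -0.96 ± 0.24 (SE; edgeR adjusted p = 0.00413). Wild-type replicate 1 did not stand apart in TRIREDRAFT_123238, whose wild-type libraries held 1026, 1063 and 1141.

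Members also lay on both sides of a gene that rose. Between TRIREDRAFT_119864, at 130, 123 and 127 normalized counts in Δcre1 against 692, 638 and 695 in the wild type, and TRIREDRAFT_74282, at 3452, 3090 and 1850 against 12901, 12277 and 17026, stood TRIREDRAFT_44366. It was at 623, 523 and 411 in Δcre1 and 420, 323 and 310 in the wild type, a log2 fold change of 0.58 ± 0.17 (SE; edgeR adjusted p = 0.0134). Leaving out wild-type replicate 2 or 3 ended that call (edgeR adjusted p = 0.0653 and 0.0607), as did library totals alone (0.391). The pair TRIREDRAFT_105533 and TRIREDRAFT_120993 had no lower gene within 4 places on either side. On one side TRIREDRAFT_58802, the nearest gene tested, rose by 0.87 ± 0.15 (SE) on the log2 scale (edgeR adjusted p = 0.000387), a call lost with library totals alone (0.0796), and on the other TRIREDRAFT_105535 passed no test (0.858). TRIREDRAFT_105533 had 81.4, 118 and 107 normalized counts in Δcre1 against 1133, 1233 and 1262 in the wild type, and TRIREDRAFT_120993 had 31.1, 41.1 and 24.8 against 436, 459 and 624.

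**Figure D5:**
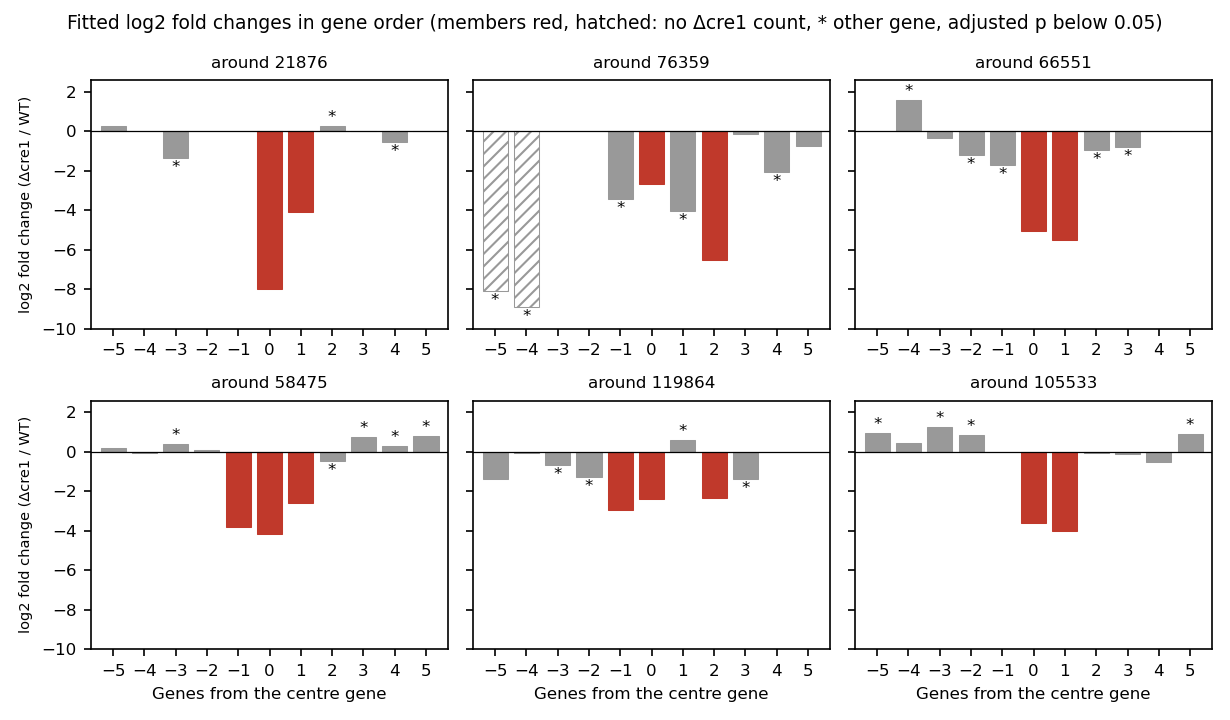
Fitted log2 fold change (Δcre1 over wild type) of the genes up to 5 places on either side of 6 members, in gene order and not to scale in distance, with members in red and other tested genes in grey. Stars mark other genes with an adjusted p below 0.05, hatched bars are genes with no Δcre1 count, whose fitted values are no measured fold, and places without a bar are genes not tested or near 0.

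Lists of genes by symbol give a partial view of known pathways beside the members, and each count is to be read against the 23.2% lower and 22.7% higher among all genes tested. Matched were 5 of 16 symbols listed for glycolysis and the pentose phosphate pathway and 9 of 14 for the regulators. For cellulases and beta-glucosidases 14 of 26 matched, for pentoses, galactose and galacturonate 9 of 19, and for citrate, acetate and glyoxylate 8 of 19. Of 5 matched genes for glycolytic and pentose phosphate enzymes 4 fell and none rose, with a median log2 fold change of -0.63, against 0.01 over all genes tested. They were pgk1 (phosphoglycerate kinase), at 42.5% of the wild type, gpd1 (glyceraldehyde-phosphate dehydrogenase), at 47.0%, eno1 (enolase), at 64.2%, and zwf1 (glucose-6-phosphate dehydrogenase), at 77.4%. Their edgeR adjusted p-values ran from 2.27e-07 for pgk1 to 0.00196 for zwf1, and none was a member. The fifth, hxk1 (hexokinase), was at 4186 ± 239 normalized counts in Δcre1 and 4125 ± 292 in the wild type (SD, n = 3 each).

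Of 9 regulators of carbon catabolite repression and cellulase genes, 5 fell and 2 rose, and 1, snf1, is a member. Of the 5, cre1 is the deleted gene and snf1 was chosen for being lower. Nothing is read from the fall of these, and only the other 3 can be set against the share over all genes. The cellulase repressor gene ace1 fell, with a log2 fold change of -0.43 ± 0.10 (SE; edgeR adjusted p = 0.00351). Where snf1 was at 23.0% of the wild type and cre1 at 10.4%, the other 3 regulators that fell were between 73.8% (ace1) and 82.3% (hap2), and the call of hap2 (edgeR adjusted p = 0.0499) was lost in DESeq2 (0.0706) and without any single wild-type library (0.0531 to 0.143). Of 14 cellulase and beta-glucosidase genes 2 fell and 5 rose (median log2 fold change 0.40), and the beta-glucosidase gene cel3a, at 317% of the wild type, showed the opposite of the members. Of those 14, cel5b met the members' conditions and was left out by name, at 379, 480 and 476 normalized counts in Δcre1 against 1760, 1892 and 1944 in the wild type.

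Of 9 genes for the breakdown of pentoses, galactose or galacturonate 4 fell and 3 rose, and most of these calls were not stable. Single libraries ended the calls of xyl1, xdh1 and gal1, and library totals alone those of xyl1, xdh1, lad1 and gal7. The lowest was lxr1, at 26.7% of the wild type, just outside the limit for members (log2 fold change -1.90 ± 0.20 (SE), edgeR adjusted p = 0.000248). Of 8 genes acting on citrate, acetate or glyoxylate 2 fell and 1 rose, and acu9, the gene with the smallest p, rose by 0.65 ± 0.10 (SE) on the log2 scale (edgeR adjusted p = 0.000108), a call lost with library totals alone. Both that fell lost their calls without single libraries, idh2 without any 1 of 5 libraries (edgeR adjusted p = 0.0622 to 0.0921) and acl2 without any 1 of 3 (0.0692 to 0.126). Neither list held a member.

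The labelled tissue was mycelia, and 2 hydrophobin genes served as markers. Hydrophobins are small secreted proteins that coat fungal surfaces. The gene hfb1, known from vegetative hyphae, was at 13.3, 24.1 and 15.0 normalized counts in Δcre1 and at 142, 194 and 128 in the wild type, low in both strains. The gene hfb2, known from aerial hyphae and conidia, was at 173980, 161605 and 190392 in Δcre1 and at 88156, 69575 and 60779 in the wild type. The log2 fold changes were -3.20 ± 0.27 and 1.27 ± 0.16 (SE; edgeR adjusted p = 3.74e-07 and 1.62e-05), and the third hydrophobin, hfb3, rose by 1.05 ± 0.11 (edgeR adjusted p = 4.1e-06). These markers moved with the strain as the members did, hfb1 in the same direction, and their part in the members' values was not tested.

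The authors' deposited table gives log2 fold changes of the members from -7.98 to -2.00. An adjusted p below 0.05 is given there for 90 of the 123 and not for 33, of which 32 stand at exactly 1 in the authors' deposited table. Over the whole of the authors' deposited table, 3659 of 9129 IDs stood at 1, and 3636 of these had a mean over the 6 libraries of at most 296 normalized counts, the lowest mean of any ID with a p below 1. The highest mean among the 32 members at 1 was 321, that of TRIREDRAFT_80578. TRIREDRAFT_58366, at 1.29% of the wild type, was among the members that the authors' deposited table leaves without a call. The 1 member with a value between was TRIREDRAFT_112516, at an adjusted p of 0.0584 in the authors' deposited table, the member in which wild-type replicate 1 stood farthest from the other wild-type libraries.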

How the data were processed

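Per the labels' protocols, TRIzol served for RNA and an Illumina TruSeq RNA kit for the libraries. The raw table holds whole read counts per protein ID as deposited, with no normalization. The submitters' processing notes list Bowtie 0.12.8, DESeq 1.10.1 and SAMtools 0.1.18. The genome build and counting tool: not given in the sources used here. The deposited normalized counts are a signal made by the authors, checked to equal the count divided by 1 size factor per library (0.706 to 1.35). The third table holds the authors' log2 fold changes and adjusted p-values, per the file headers.

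Groups and replicate numbers come from the sample titles. Members and gene lists were chosen with earlier results of these data known. Levels are deposited normalized counts (mean ± SD, n = 3). Raw counts were fitted in R 4.3.3 with edgeR 4.0.16 (filterByExpr, TMM, glmQLFit robust, glmQLFTest, two-sided), with Benjamini-Hochberg adjustment over 8190 genes and a threshold of 0.05. SEs were taken as the size of the fold change (log2) divided by the root of F. This fit was also run on simulated counts with the same spread setting for every gene, so that run does not speak to genes of wide spread. The labels do not name separate cultures, so the p-values speak only to the spread among these libraries, which may be technical. Differences in harvest time may be part of that spread, since no label ties a library to a time. Of 9129 IDs, 9072 matched a locus tag in RefSeq assembly v2.0 of strain QM6a, used for names and gene order only. Neighbours are consecutive genes there with a gap of at most 20 kb, and ends of sequences were read from where positions start again. Named genes are members with a symbol, the 12 lowest shares and 12 highest wild-type means, genes next to a limit, neighbouring members, wide spreads, and up to 4 called genes per list. Those in neighbouring places and the chi18 list were chosen after their values were seen. Alternatives were DESeq2 1.42.0, library totals, no filter, a replicate block and leaving out each library. Same-numbered libraries of the strains had deviations correlated across genes at 0.170, 0.0354 and 0.110 for numbers 1, 2 and 3. The labels name no pairs, and the main fit used none.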

Additional observations from a re-analysis of the deposited data

How the results depend on the processing

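The choice of members changed little on the TMM scale, where 122 genes met the conditions in place of 123. It did depend on scaling, since 164 genes met them with library totals alone. With a limit of 20% of the wild type 90 genes met the conditions. Without single libraries 118 to 133 met the conditions, and their median log2 ratio ran from -2.75 to -2.53. Of the 123, 113 to 120 still met them when any 1 library was left out. Genes higher in Δcre1 numbered 400 with library totals alone, in place of 1863, and the cause was not tested. The counts of genes lower in Δcre1 (1599 to 1910 without single libraries), of direct neighbours lower (66 to 80), of glycolysis genes lower (4 in each) and of regulators lower (4 to 6) stayed within 1.5 times of the reported ones. With the replicate block 2003 genes were lower and 1939 higher, and 86 direct neighbours were lower. Δcre1 replicates 1 and 3 correlated best with the wild-type library of their own number, and Δcre1 replicate 2 with wild-type replicate 3 (r = 0.0740, against 0.0354 with its own). These values do not settle whether the numbers mark pairs. A planned search of promoters for the CRE1 consensus was not run. Members at a few raw counts are limited by depth.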
